A study of Homo sapiens with 24 samples.

Results

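ZBTB genes encode transcription factors that pair an N-terminal BTB domain with C-terminal zinc fingers. They were taken as every gene in the count tables whose symbol is ZBTB followed by a digit, which gave 47 of 29794 genes, 42 of them protein-coding. Of these 47, 41 passed the filter on low counts in the first batch of libraries, among 14348 genes tested, and 40 passed in the second batch, among 14054. ZBTB20 passed in the first batch alone, and 6 genes passed in neither (ZBTB32, the antisense genes ZBTB20-AS2, ZBTB20-AS3, ZBTB20-AS4 and ZBTB20-AS5, and ZBTB44-DT). One member by symbol, ZBTB8OS, encodes archease, a cofactor of tRNA ligation, and is not a zinc finger protein.

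In these proteins the BTB domain forms dimers and recruits corepressor complexes such as NCoR and SMRT, while the zinc fingers bind DNA. Family members are known as repressors in blood cell lineages, in the nervous system, at methylated DNA and in cell cycle control. A microRNA (miRNA) guides Argonaute to mRNAs, mostly through pairing of its seed, bases 2 to 8, with the 3'UTR, and thereby lowers mRNA level and translation.

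The question was how an introduced miRNA changes the transcriptome, and RNA was taken from Flp-In T-REx 293 cells, a HEK293-derived line of human embryonic kidney origin. Every group carried a stably integrated lentiviral GFP cassette under a doxycycline-inducible CMV promoter, was kept under Geneticin selection (1 mg/mL, 6 days) and received 7 days of induction with 1 ug/mL doxycycline. The groups differed in the hairpin placed in the intron of the cassette: none (empty vector), miR-1 or miR-122 in the first batch, with 2 libraries each, and, with 3 libraries each, none, miR-302a, miR-372, miR-373, miR-133a or miR-155 in the second. Replicates were transduced and kept apart, and a miRNA was always set against its own batch's empty vector, so the comparisons of a batch share their control libraries.

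Summed exon counts ran from 20153452 to 21595191 reads per library in the first batch and from 13047400 to 35040778 in the second. In the second batch miR-155 replicate 2 and miR-372 replicate 2 stood apart: genes over 5000 bases deviated from the batch by a median log2 value of -0.15 and -0.17, and genes under 2000 bases by 0.20 and 0.17. The ZBTB genes deviated in them by -0.12 and -0.10. Their median exon length was 5219 bases, against 3584 over all genes tested in the second batch. ZBTB genes that passed the test with miR-155 or miR-372 against the empty vector are therefore also given without both. The same holds for some of the other results. The empty vector libraries of the second batch leaned the other way, by 0.04, 0.11 and 0.04 for the long genes. For the short genes they deviated by -0.05, -0.11 and -0.06, and for the ZBTB genes by at most 0.03. Every comparison with that empty vector holds this lean, and its part in the calls was not tested. All 6 matched markers of HEK293 cells were detected in every library, from 1.26 to 4.42 CPM (reads scaled to a common library size) for NEFM to 908 to 1310 CPM for VIM. NEFL and LHX1 of the same list were not matched. Among 8 markers of other cell types TYR was at 0 in all libraries, and PTPRC, ALB, CDH5 and INS stayed at or below 0.35 CPM. MYOD1 reached 0.709 CPM and DES 1.43, and COL1A1 had 8.17 to 25.7 CPM, above NEFM. In the second batch 2 of these markers could be tested. By the edgeR test used below, both were higher with miR-372 (log2 fold-changes 0.67 and 2.47). With miR-302a and with miR-373 1 was higher, and with miR-133a and miR-155 0 passed. The summed level of those 8 markers was 12.0 to 15.4 CPM in the empty vector of the second batch, 17.7 to 24.4 in miR-302a, 20.1 to 26.8 in miR-372 and 17.9 to 27.5 in miR-373, with COL1A1 giving most of it, and its part in the results was not tested. In bulk libraries, fewer cells with an mRNA and less of it per cell cannot be told apart.

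The mature miRNAs are shown first because their seeds define the groups. Capitals mark the seed (bases 2 to 8), and the sequences are from RefSeq (GRCh38.p14).
miR-1: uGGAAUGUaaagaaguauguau
miR-122: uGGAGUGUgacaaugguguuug
miR-133a: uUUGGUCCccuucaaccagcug
miR-155: uUAAUGCUaaucgugauagggguu
miR-302a: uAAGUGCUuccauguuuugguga
miR-372: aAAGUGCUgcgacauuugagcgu
miR-373: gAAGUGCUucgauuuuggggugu
The last 3 share the seed AAGUGCU and differ outside it, so they are called the seed family here. The seeds of miR-1 and miR-122 differ at 1 base.

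Matches to these seeds were searched in the longest annotated 3'UTR of each gene on GRCh37: the 8mer (seed match followed by A), the 7mer-m8 (seed match alone) and the 7mer-A1 (match to bases 2 to 7 followed by A). The stretches below belong to members whose mRNA was lower with the matching miRNA. They are written 5' to 3' on the mRNA strand with the match in capitals, and all lie in the 3'UTR.
ZBTB7A, seed family, chr19:4047191-4047197, minus strand: ccttcctcaggGCACTTActaagggagggg
ZBTB7A, seed family, chr19:4046976-4046982, minus strand: cttccttcacgGCACTTAcaaccggcggga
ZBTB7A, seed family, chr19:4046833-4046839, minus strand: caaatttttaaAGCACTTtttagatttttt
ZBTB41, seed family, chr1:197126917-197126924, minus strand: actgtcgctgaAGCACTTAagaaataaagg
ZBTB41, seed family, chr1:197125526-197125533, minus strand: agatagcagttAGCACTTAatctgtaaatt
ZBTB11, seed family, chr3:101369414-101369421, minus strand: ttctattttaaAGCACTTAtgagttacatg
ZBTB5, seed family, chr9:37438366-37438373, minus strand: gtacatgctgtAGCACTTAaaaaataattc
ZBTB47, seed family, chr3:42707629-42707635, plus strand: tcaataaacgaAGCACTTtattctgtacag
ZBTB9, miR-1, chr6:33424919-33424925, plus strand: aacaagttgagCATTCCAtgtttcattctt
ZBTB41, miR-1, chr1:197128471-197128478, minus strand: gtaaatctaaACATTCCAcagatttttgga
ZBTB41, miR-122, chr1:197127065-197127071, minus strand: cagttttgtttACACTCCtaattgctttaa
ZBTB4, miR-122, chr17:7364187-7364193, minus strand: ccctcaccaatCACTCCAgatggttttggg
ZBTB38, miR-133a, chr3:141167081-141167087, plus strand: tgataattctaGACCAAAgtaaatatggca
ZBTB18, miR-155, chr1:244220436-244220442, plus strand: aatggccttggAGCATTAtctttagttact
ZBTB8B, miR-155, chr1:32952801-32952807, plus strand: atgttagccaaAGCATTAgacaggtgttta
ZBTB41 holds matches for 4 of the 5 seeds, all but that of miR-133a. ZBTB38 holds none for the seed family.

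In empty vector cells the family spanned a wide range of levels. Compared per kilobase (kb) of exon length, ZBTB12 was highest, at 25.5 ± 0.329 CPM per kb (SD, n = 2) in the first batch and 25.7 ± 1.93 (SD, n = 3) in the second. ZBTB33, the methyl-CpG reader Kaiso, followed at 21.7 ± 0.284 and 21.9 ± 0.414 CPM per kb, then ZBTB21 at 19.8 ± 1.23 and 19.2 ± 0.977. Next was ZBTB18, a repressor that acts in neural and muscle development, at 18.4 ± 1.05 and 17.4 ± 0.415. These 4 genes held the same places in both batches. ZBTB7A (LRF), a repressor of fetal globin genes and of glycolysis genes, stood seventh and sixth, at 11.2 ± 0.329 and 12.1 ± 0.481 CPM per kb. At the lower end, ZBTB16 (PLZF), a factor of innate-like lymphocytes and germ cells, had 1.16 ± 0.15 and 1.05 ± 0.466 CPM per kb, and ZBTB8B had 0.769 ± 0.0202 and 0.772 ± 0.106. ZBTB20 had 7 and 12 reads in the first batch's controls. Of the neighbouring pairs in this order, 21 of 40 in the first batch and 27 of 39 in the second had overlapping libraries, so much of the order is not resolved. ZBTB12, ZBTB33 and ZBTB21 were apart from each other in both batches, while ZBTB21 and ZBTB18 overlapped in the first.

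**Figure D1:**
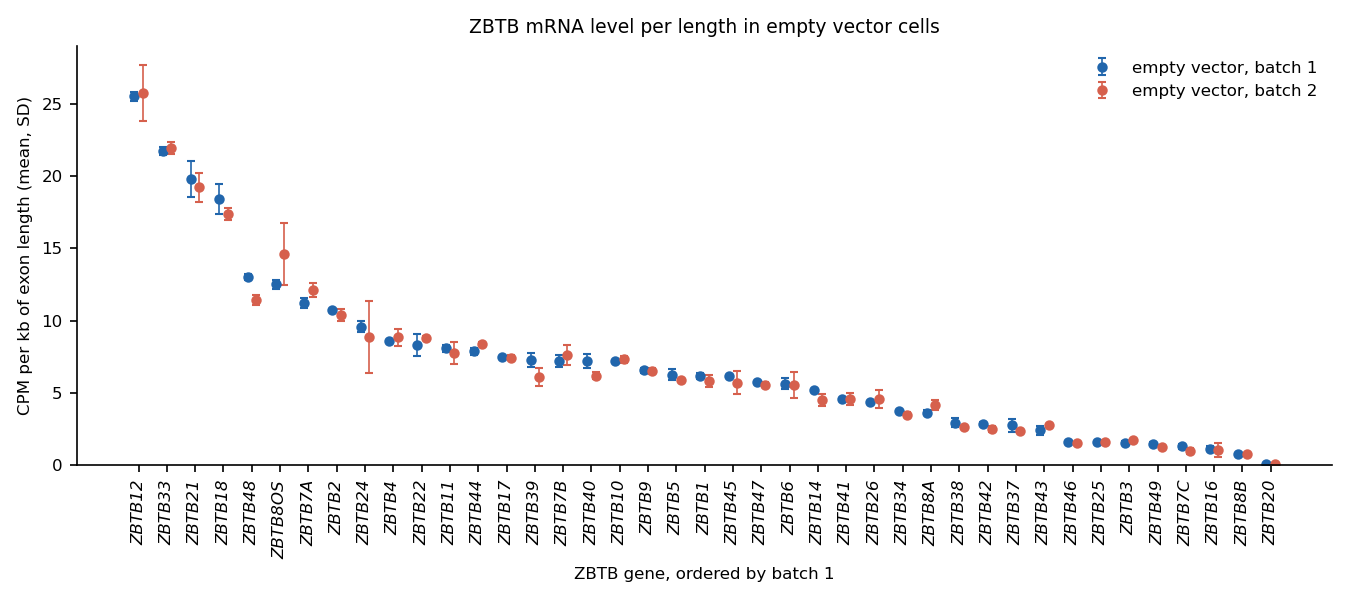
mRNA level of the 41 ZBTB genes that passed the filter in at least 1 batch, in empty vector cells, as CPM per kb of exon length (vertical axis, linear). Points are means over 2 (first batch, blue) or 3 (second batch, red) libraries and bars are SDs; ZBTB12, ZBTB33, ZBTB21 and ZBTB18 lead in both batches, and ZBTB20 lies near 0.

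Each of the 7 miRNAs lowered a small number of ZBTB mRNAs. In the 7 comparisons with the empty vector, 13 members were called (edgeR's quasi-likelihood test, Benjamini-Hochberg adjusted p under 0.05 over all genes tested), 7 of them in 1 comparison and 6 in 2 or more. These were 23 calls, of which 21 were lower and 2 were higher. Another 28 members were tested and called in none. With all libraries, the share of members called was near the background of all genes or below it for 6 miRNAs, and above it with miR-372. With miR-1 it was 6 of 41 (14.6%), 4 lower and 2 higher, against 24.5% of all genes tested (13.7% lower, 10.8% higher). With miR-122 it was 2 of 41, both lower, against 5.92% (4.06% lower, 1.86% higher). In the second batch all members called were lower. With miR-133a there were 2 of 40, against 5.34% of all genes (3.97% lower, 1.37% higher), and with miR-155 there were 2 of 40, against 7.63% (4.81% lower, 2.82% higher). With miR-302a there were 3 of 40, against 7.88% (4.85% lower, 3.02% higher). With miR-372 there were 6 of 40 (15%), against 11.4% (6.56% lower, 4.82% higher). With miR-373 there were 2 of 40, against 5.13% (3.3% lower, 1.83% higher). The results are therefore given member by member. Without miR-155 replicate 2 and miR-372 replicate 2 the share of members called was above that of all genes for each seed family miRNA: 9 of 40 (22.5%) with miR-302a, against 14.5%, 8 (20%) with miR-372, against 9.87%, and 6 (15%) with miR-373, against 8.41%. In that fit it was 3 of 40 (7.5%) with miR-133a, against 11.8%, and 2 (5%) with miR-155, against 5.53%. That fit was chosen after the data were seen, and another fit gave another picture. With the replicate number as a block, 15% of members were called with miR-302a, against 11.7% of all genes. It was 15% with miR-372, against 16%, and 12.5% with miR-373, against 7.98%. With miR-133a it was 7.5%, against 9.31%, and with miR-155 17.5%, against 11.8%. The shares of members and of all genes were not tested against each other.

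**Figure D2:**
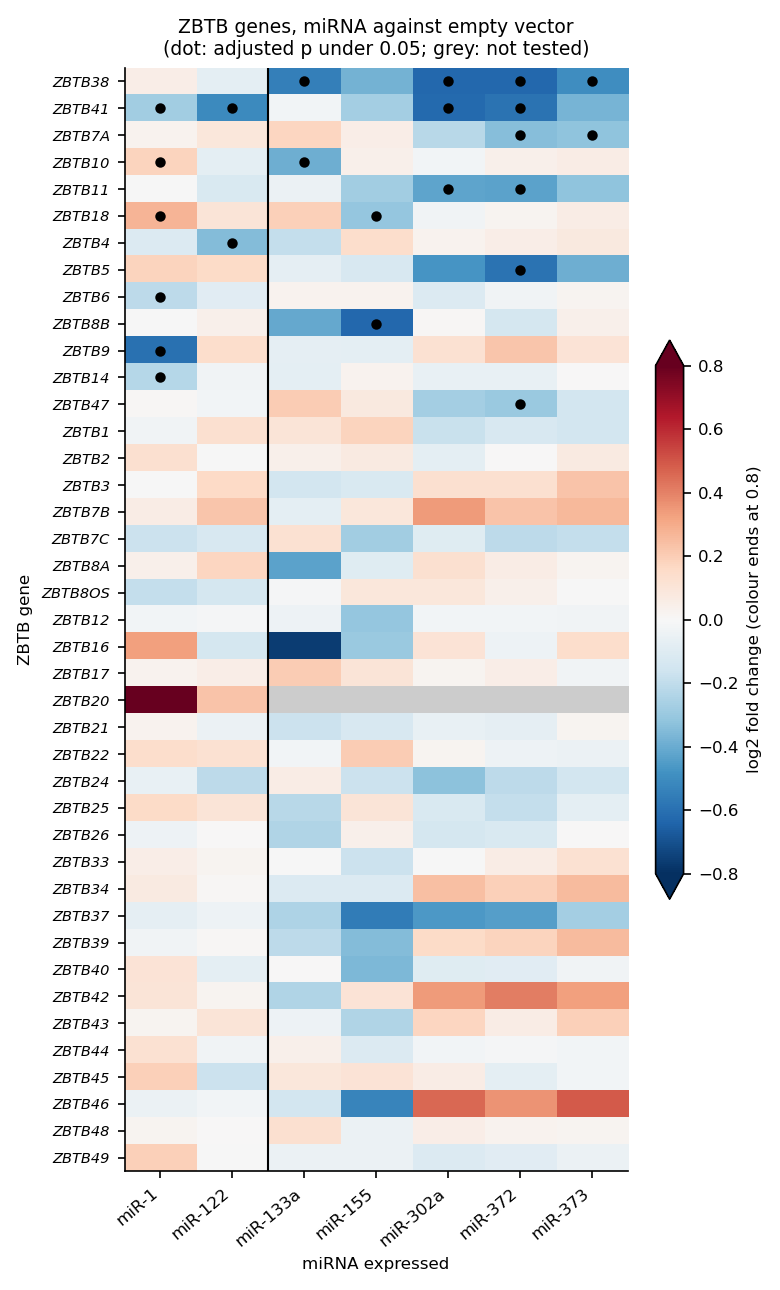
log2 fold-change of each ZBTB gene (rows) with each miRNA (columns) against the empty vector of its batch; blue is lower, red is higher, the colour scale ends at 0.8 in both directions, dots mark calls and grey marks genes not tested. The vertical line parts the 2 batches; ZBTB38 and ZBTB41 carry 4 calls each, all lower, and the calls of ZBTB10 and ZBTB18 with miR-1 are the 2 higher ones.

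ZBTB7A fell with miR-372 and miR-373. The gene (ENSG00000178951.4, chr19:4043301-4066897, minus strand) is the member that the study named among the direct targets of miR-373 in these cells, so its direction there is not independent evidence. Its empty vector libraries had 69.3, 72.2 and 66.7 CPM. With miR-372 the libraries had 52.9, 55.5 and 56.1 CPM, all below every control, and the log2 fold-change was -0.34 (SE 0.0676, edgeR adjusted p = 0.0028). Without both libraries that stood apart it was -0.35 (adjusted p = 0.0040). With miR-373 the libraries had 55.3, 53.8 and 57.2 CPM, again all below every control, and the log2 fold-change was -0.32 (SE 0.0674, edgeR adjusted p = 0.0070). With miR-302a they had 61.7, 56.1 and 61.1 CPM, also below every control, but the log2 fold-change of -0.22 (95% interval -0.36 to -0.08) missed the threshold at an edgeR adjusted p of 0.052. That call was on the other side of the threshold in 5 of the alternative fits, with adjusted p-values from 0.030 to 0.045. It was not gained in any of the 6 fits that left out a single library. There the log2 fold-change ran from -0.25 to -0.18, with edgeR adjusted p-values from 0.076 to 0.2.

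ZBTB7A did not pass the test with any of the other miRNAs. With miR-133a its libraries had 77.5, 81.6 and 74.9 CPM (log2 fold-change 0.17, edgeR adjusted p = 0.16), and with miR-155 they had 68.6, 74.6 and 72.8 CPM (0.05, adjusted p = 0.68). In the first batch it had 62.5 and 65.2 CPM in the empty vector, 66.7 and 63.6 with miR-1, and 69.1 and 66.9 with miR-122. The corresponding log2 fold-changes were 0.03 and 0.09, with edgeR adjusted p-values of 0.73 and 0.36. The difference between miRNAs was tested directly. ZBTB7A was higher with miR-133a than with the mean of the seed family by 0.46 on the log2 scale (SE 0.0538, edgeR adjusted p = 4.4e-06), and higher with miR-155 than with the family by 0.35 (SE 0.0542, adjusted p = 9.5e-05). In both contrasts every family library lay below every library of the other miRNA. The 0.46 holds both the 0.17 of miR-133a and the -0.29 of the family mean, each against the empty vector. Its 3'UTR also holds a miR-1 8mer and a miR-155 7mer-A1, and it was called with neither of those miRNAs.

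ZBTB38 and ZBTB41 fell with miRNAs of the seed family too. ZBTB38 (ENSG00000177311.6, chr3:141043055-141168634, plus strand) encodes a factor that binds methylated CpG. It had 27.3, 28.0 and 26.9 CPM in the empty vector libraries of the second batch, and 14.9, 21.7 and 16.2 with miR-302a, 18.9, 18.3 and 16.1 with miR-372, and 19.7, 21.5 and 17.3 with miR-373. All 9 libraries of the seed family lay below every control. On the log2 scale the changes were -0.63 (SE 0.128, edgeR adjusted p = 0.0043), -0.63 (SE 0.127, adjusted p = 0.0032) and -0.50 (95% interval -0.76 to -0.23, adjusted p = 0.025). The miR-373 call was lost when any 1 of 5 libraries was left out, that is all but miR-373 replicate 2 (adjusted p up to 0.15). Without both libraries that stood apart the miR-372 value was -0.65 (adjusted p = 0.0047). No match to the family seed was found in its 3'UTR. Its gene span overlaps PXYLP1 on the same strand, so reads of a shared stretch could not be given to 1 gene.

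ZBTB38 fell with miR-133a as well. Its libraries then had 21.2, 16.6 and 18.4 CPM, all below every control (log2 fold-change -0.55, SE 0.128, edgeR adjusted p = 0.014). This call was lost without empty vector replicate 2, miR-133a replicate 2 or miR-133a replicate 3 (adjusted p up to 0.11). With miR-155 they had 21.3, 22.0 and 19.6 CPM, below every control as well, with a log2 fold-change of -0.38 that did not pass (95% interval -0.65 to -0.12, edgeR adjusted p = 0.070). Its 3'UTR holds a miR-133a 7mer-A1 and, for miR-155, an 8mer and a 7mer-m8. Between miR-133a and the seed family no difference was detected, at 0.04 (95% interval -0.18 to 0.26). The 4 calls of ZBTB38 share the same 3 control libraries, which spread little (SD 0.581 CPM).

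ZBTB41 (ENSG00000177888.7, chr1:197122812-197170423, minus strand), a little-studied member, had 42.5, 37.6 and 36.2 CPM in the empty vector libraries of the second batch. With miR-302a it had 23.2, 23.0 and 29.9 CPM, and the log2 fold-change was -0.62 (SE 0.110, edgeR adjusted p = 0.0015). With miR-372 it had 27.7, 22.2 and 27.0 CPM, and the log2 fold-change was -0.59 (SE 0.109, adjusted p = 0.0015), or -0.50 (adjusted p = 0.0050) without both libraries that stood apart. With miR-373 it had 31.3, 29.1 and 29.7 CPM and a log2 fold-change of -0.37 that narrowly missed the threshold (95% interval -0.59 to -0.14, edgeR adjusted p = 0.052). All 9 libraries of the seed family lay below all 3 controls. With miR-155, for which its 3'UTR holds 4 matches including 2 8mers, the libraries had 31.7, 31.1 and 33.9 CPM, below every control, and the log2 fold-change of -0.27 did not pass (edgeR adjusted p = 0.14). With miR-133a, for which it holds no match, it had 40.8, 39.6 and 34.6 CPM (-0.02, adjusted p = 0.95). It was higher with miR-133a than with the seed family by 0.51 (SE 0.0868, edgeR adjusted p = 3.0e-04).

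ZBTB11, ZBTB5 and ZBTB47 fell with miR-372, ZBTB11 with miR-302a as well, and each holds at least 1 match to the family seed. ZBTB11 (ENSG00000066422.4, chr3:101367733-101395979, minus strand) had 61.2, 54.8 and 50.6 CPM in the empty vector, 40.7, 43.9 and 39.6 with miR-302a, 43.5, 37.3 and 43.0 with miR-372, and 47.8, 43.3 and 42.9 with miR-373. All 9 family libraries lay below the controls. On the log2 scale it changed by -0.42 (SE 0.0968, edgeR adjusted p = 0.011), -0.43 (SE 0.0964, adjusted p = 0.0072) and -0.32 (SE 0.0958, adjusted p = 0.061), of which the last did not pass. The miR-302a call was lost without empty vector replicate 1, miR-302a replicate 1 or miR-302a replicate 3 (adjusted p up to 0.065), and the miR-372 call without empty vector replicate 1 (adjusted p = 0.051). Without both libraries that stood apart the miR-372 value was -0.36 (adjusted p = 0.012). ZBTB5 (ENSG00000168795.4, chr9:37438099-37465447, minus strand), a repressor of CDKN1A, had 27.8, 27.2 and 27.2 CPM in the empty vector and 19.4, 12.8 and 21.7 with miR-372. Its log2 fold-change with miR-372 was -0.59 (SE 0.144, edgeR adjusted p = 0.012), and the lowest value came from replicate 2, a library that stood apart. Without both such libraries it was -0.41 (adjusted p = 0.015).

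ZBTB5 also lay below every control with miR-302a, at 22.9, 17.4 and 19.1 CPM, and with miR-373, at 20.2, 20 and 22.4 CPM. Those log2 fold-changes of -0.47 and -0.39 did not pass (edgeR adjusted p = 0.052 and 0.14). ZBTB47 (ENSG00000114853.9, chr3:42695189-42709072, plus strand) had 29.6, 31.1 and 31.3 CPM in the empty vector and 25.6, 23.2 and 25.6 with miR-372. Its log2 change of -0.30 (SE 0.0925, edgeR adjusted p = 0.040) is at the edge of the threshold, since leaving out any 1 of the 6 libraries lost the call (adjusted p from 0.052 to 0.13), as did leaving out both libraries that stood apart (-0.26, adjusted p = 0.074).

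Taking the mean of the 3 same-seed miRNAs uses 9 libraries, and 7 of 40 members were called against the empty vector, beside 15.4% of all genes tested (9.11% lower, 6.28% higher). The 6 lower ones were those described above. Their log2 fold-changes were -0.59 for ZBTB38 (SE 0.101), -0.53 for ZBTB41 (SE 0.0866), -0.48 for ZBTB5 (SE 0.115), -0.39 for ZBTB11 (SE 0.0772), -0.29 for ZBTB7A (SE 0.0544) and -0.24 for ZBTB47 (SE 0.0748). The edgeR adjusted p-values ran from 0.00037 for ZBTB41 to 0.035 for ZBTB47, whose call was lost in 6 of the 12 fits that left out 1 library (any empty vector library, miR-302a replicate 3, miR-373 replicate 1 or miR-373 replicate 2, adjusted p up to 0.14). The member that rose was ZBTB46 (ENSG00000130584.6, chr20:62375021-62463391, minus strand), a marker of classical dendritic cells. It had 8.18, 8.37 and 8.11 CPM in the empty vector, and from 8.38 to 12.4 CPM in the family libraries, all above every control. Its log2 fold-change was 0.44 (SE 0.134, edgeR adjusted p = 0.033), and the call was lost when any 1 of the 3 empty vector libraries was left out (adjusted p up to 0.11). ZBTB46 differed by -0.96 on the log2 scale between miR-155 and the seed family (SE 0.142, edgeR adjusted p = 5.2e-05), with 6.13, 4.13 and 6.80 CPM in the miR-155 libraries. Without both libraries that stood apart, one of which holds the 4.13 CPM, that difference was -0.83 (adjusted p = 7.5e-05). In the same fit 11 of 40 members (27.5%) were called for the family mean, 7 lower and 4 higher, beside 19.8% of all genes.

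**Figure D3:**
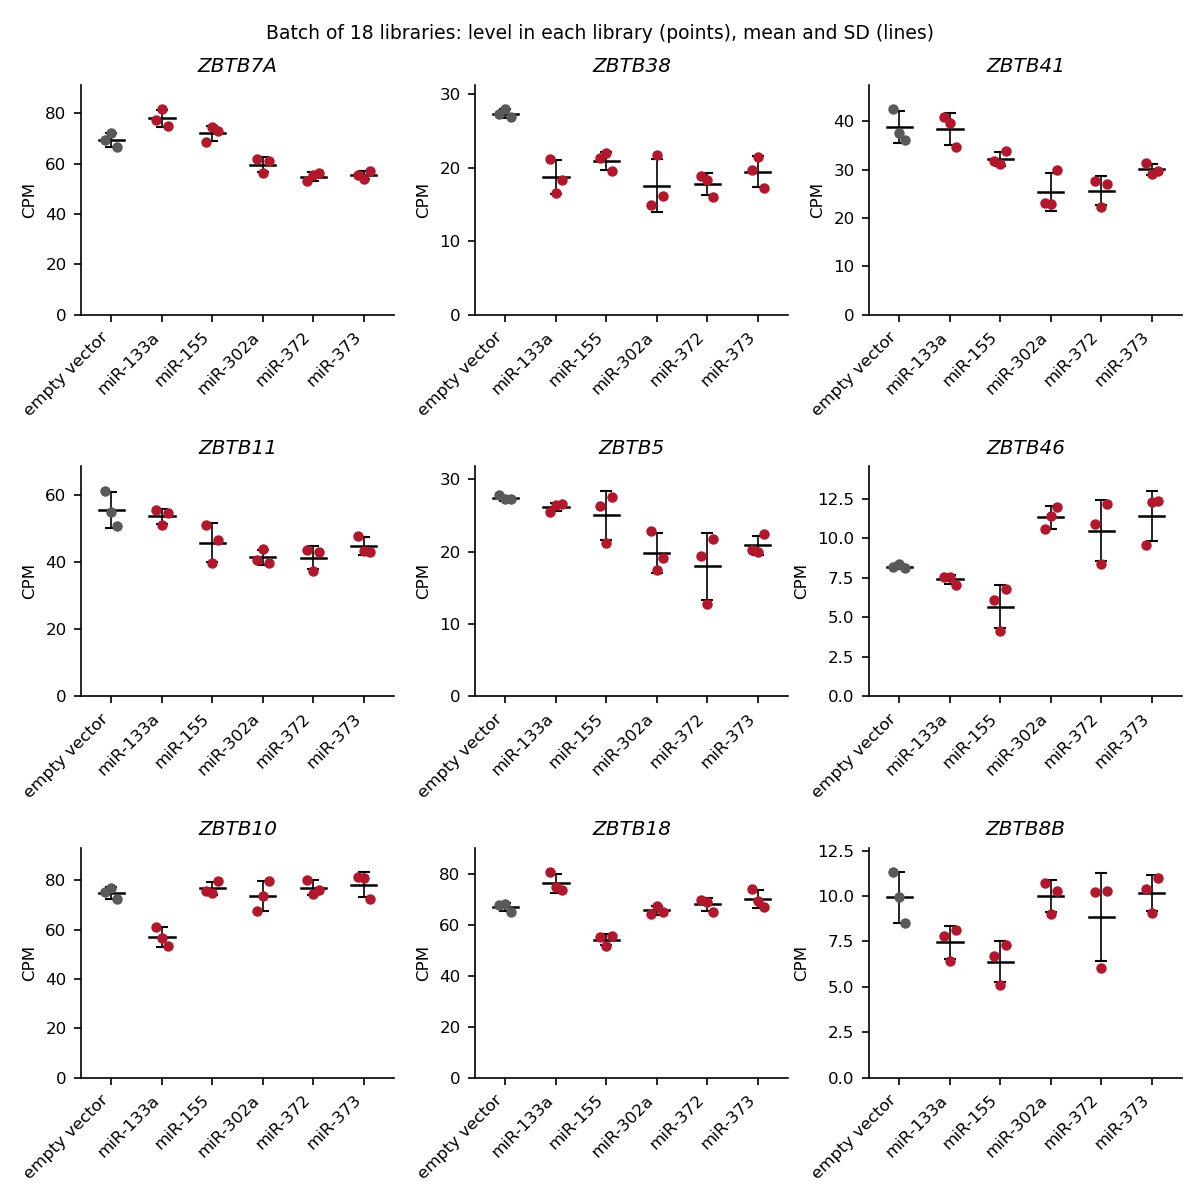
CPM (vertical axes, linear, from 0) of 9 ZBTB genes in the second batch; points are single libraries (grey for the empty vector, red for a miRNA), horizontal lines are means and bars are SDs (n = 3). For ZBTB7A, ZBTB38, ZBTB41, ZBTB11 and ZBTB5 all seed family libraries lie below the empty vector, and for ZBTB46 they lie above it.

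The 3 same-seed miRNAs were also compared with each other, to ask whether members differ among them. In each of the 3 pairs 0 of 40 members were called, and 0% of all genes tested, by edgeR's quasi-likelihood test. DESeq2 called 0 members in each pair too. At an unadjusted p under 0.05 there were 0 members for miR-302a against miR-372, 1 for miR-302a against miR-373 and 0 for miR-372 against miR-373. That member was ZBTB41, at -0.25 for miR-302a minus miR-373 (95% interval -0.48 to -0.02, edgeR adjusted p = 1). For ZBTB7A the interval of miR-302a minus miR-372 ran from -0.02 to 0.26 and that of miR-372 minus miR-373 from -0.16 to 0.12. Differences of such size between same-seed miRNAs could not be detected here, and a call with 1 of them and not another is no sign that they differ.

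With miR-133a, ZBTB10 and ZBTB38 fell. ZBTB10 (ENSG00000205189.7), a factor that binds telomeric repeat variants and GC-rich promoters, had 75.2, 76.8 and 72.3 CPM in the empty vector and 61.2, 56.4 and 53.3 with miR-133a. The groups did not overlap, and the log2 fold-change was -0.39 (SE 0.0774, edgeR adjusted p = 0.0039), a call kept whichever library was left out. Its 3'UTR holds 2 7mer-A1 matches for miR-133a. ZBTB10 was lower with miR-133a than with miR-155 by -0.43 (SE 0.0774, edgeR adjusted p = 6.4e-04) and than with the seed family by -0.42 (SE 0.0645, adjusted p = 1.1e-04). The 38 members not called ran from -0.76 (ZBTB16, with a mean of 2.96 CPM in the controls) to 0.20.

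With miR-155, ZBTB18 and ZBTB8B fell. ZBTB18 (RP58, ENSG00000179456.9, chr1:244211849-244220778, plus strand) had 68.0, 68.1 and 65.2 CPM in the empty vector and 55.4, 51.6 and 55.5 with miR-155. The groups did not overlap, and the log2 fold-change was -0.31 (SE 0.0670, edgeR adjusted p = 0.0071). That call held without each library in turn, and without both libraries that stood apart it was -0.28 (adjusted p = 0.028). ZBTB8B (ENSG00000273274.1, chr1:32930673-32962287, plus strand), a member with a 3'UTR of 11268 bases, had 11.3, 9.95 and 8.53 CPM in the empty vector and 6.72, 5.12 and 7.29 with miR-155. Its log2 change of -0.63 (SE 0.187, edgeR adjusted p = 0.045) rests on few reads, from 67 to 151 per library. It was lost when any 1 library other than miR-155 replicate 3 was left out (adjusted p up to 0.20), and without both libraries that stood apart it was -0.50 (adjusted p = 0.065). Its span also overlaps another annotated protein-coding gene on the same strand, which was not among the genes counted.

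Set directly against each other, miR-133a and miR-155 differed in 2 of 40 members, beside 16.7% of all genes tested (8.61% lower, 8.14% higher). ZBTB18 was higher with miR-133a, at 80.7, 74.8 and 73.6 CPM, by 0.50 (SE 0.0669, edgeR adjusted p = 3.3e-05), and the other was ZBTB10, given above. Same-numbered libraries of these groups deviated together, and with the replicate number as a block 7 members were called, 4 lower and 3 higher with miR-133a, beside 21.7% of all genes. Without both libraries that stood apart 7 were called, 6 lower and 1 higher, beside 19.4%. Against the mean of the seed family, 14 of 40 members differed with miR-133a, beside 20.5% of all genes tested (10.5% lower, 9.91% higher), 7 in each direction. With miR-155, 14 of 40 differed from the family mean, beside 27.1% (13.1% lower, 13.9% higher), 8 lower and 6 higher. Of the members called for the family mean, ZBTB7A, ZBTB41, ZBTB5 and ZBTB47 were higher than in the family with both miRNAs. ZBTB11 was higher with miR-133a, and ZBTB46 was lower with both. Among the other members, ZBTB1 was higher with both, and ZBTB34 and ZBTB39 were lower with both. ZBTB18 was higher with miR-133a and lower with miR-155. Libraries of the groups compared did not overlap for 11 of the 14 calls with miR-133a and 7 of the 14 with miR-155. Same-numbered libraries of miR-133a and miR-155 also deviated together with those of some seed family miRNAs, and with the replicate number as a block 17 and 18 members differed from the family mean, beside 25.2% and 32.7% of all genes. Without both libraries that stood apart 21 differed with miR-133a, beside 27.8%, and 13 with miR-155, beside 24.2%, and the miR-155 calls of ZBTB41 (0.25, adjusted p = 0.055) and ZBTB12 (-0.23, adjusted p = 0.083) were lost there.

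In the first batch miR-1 lowered 4 members and raised 2. ZBTB9 (ENSG00000213588.4, chr6:33421747-33425321, plus strand) fell most, from 18.1 and 17.5 CPM in the empty vector to 12.2 and 11.3. The libraries did not overlap, and the log2 fold-change was -0.60 (SE 0.0884, edgeR adjusted p = 6.5e-05). ZBTB41 fell from 39.3 and 37.9 CPM to 31.5 and 32.3, without overlap, by -0.28 on the log2 scale (SE 0.0667, edgeR adjusted p = 0.0051), a call lost without miR-1 replicate 1 (adjusted p = 0.056). ZBTB18 rose from 68.0 and 73.7 CPM to 85.1 and 86.0, by 0.27 (SE 0.0504, edgeR adjusted p = 6.3e-04). ZBTB18 holds no miR-1 match in its 3'UTR, and its call, like that of ZBTB9, held without each library.

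The other 3 calls with miR-1 were small and close to the threshold. ZBTB10 was higher by 0.18 (edgeR adjusted p = 0.013), with 73.5 and 73.8 CPM in the empty vector and 82.5 and 84.4 with miR-1, and the call was lost without either miR-1 library (adjusted p up to 0.092). ZBTB14 (ENSG00000198081.6, chr18:5289018-5297052, minus strand), which binds GC-rich promoters, was lower by -0.23 (edgeR adjusted p = 0.048), and leaving out any 1 of the 4 libraries lost the call (adjusted p from 0.063 to 0.20). ZBTB6 (ENSG00000186130.4, chr9:125670335-125675602, minus strand) was lower by -0.21 (edgeR adjusted p = 0.049), with a call that held only without empty vector replicate 1 among the 4 fits (adjusted p = 0.016). ZBTB14 holds no miR-1 match and ZBTB6 a 7mer-m8. The 35 members not called ran from -0.19 to 0.90, the highest being ZBTB20, with 7 to 20 reads per library in these groups.

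With miR-122, ZBTB41 and ZBTB4 fell. ZBTB41 had 25.2 and 28.8 CPM, below both controls, and its log2 fold-change was -0.51 (SE 0.0687, edgeR adjusted p = 4.7e-05). ZBTB4 (ENSG00000174282.7, chr17:7362685-7387582, minus strand), a reader of methylated CpG, had 51.7 and 51.9 CPM in the empty vector and 40.7 and 40.4 with miR-122. Its log2 fold-change was -0.35 (SE 0.0557, edgeR adjusted p = 3.1e-04). Both calls held without each library. The 39 members not called ran from -0.21 to 0.23.

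Between miR-1 and miR-122, 9 of 41 members differed, beside 31.2% of all genes tested (16% lower, 15.2% higher), 2 lower and 7 higher with miR-1. ZBTB9 was lower with miR-1 by -0.73 (SE 0.0872, edgeR adjusted p = 3.0e-06), with 19.4 and 19.8 CPM in the miR-122 libraries. ZBTB41 fell with both miRNAs and was higher with miR-1 than with miR-122 by 0.24 (SE 0.0706, edgeR adjusted p = 0.015). ZBTB4 was higher with miR-1 by 0.24 (SE 0.0562, edgeR adjusted p = 0.0030), although its 3'UTR holds an 8mer for miR-1 and a 7mer-A1 for miR-122. ZBTB45 had the largest difference among those higher with miR-1, at 0.36 (SE 0.0745, edgeR adjusted p = 0.0012), and was called with neither miRNA against the empty vector.

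**Figure D4:**
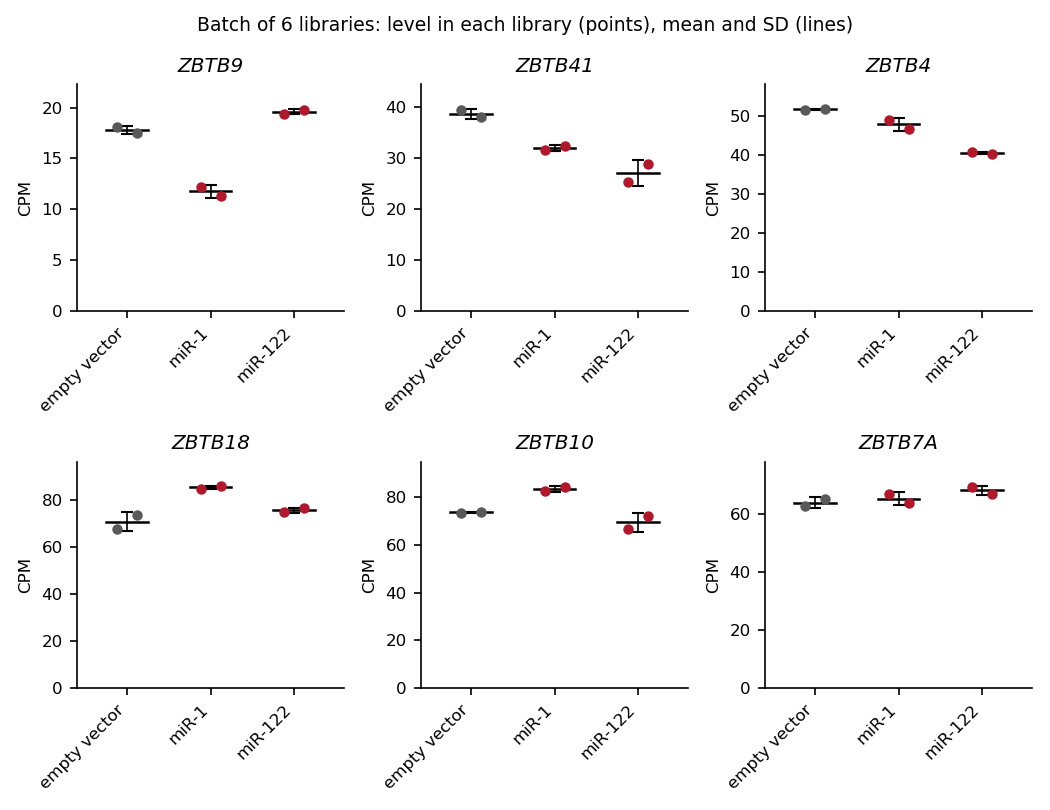
CPM (vertical axes, linear, from 0) of 6 ZBTB genes in the first batch; points are single libraries (grey for the empty vector, red for a miRNA), horizontal lines are means and bars are SDs (n = 2). ZBTB9 is lower with miR-1, ZBTB4 lower with miR-122, ZBTB41 lower with both, and ZBTB18 and ZBTB10 are higher with miR-1, while the ZBTB7A libraries of miR-1 overlap those of the empty vector.

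The calls were also sorted by role. These lists hold few genes, and the shares of all genes called with each miRNA are those given above. Of the 3 methyl-CpG readers, ZBTB33 was called with none of the 7 miRNAs, ZBTB4 with miR-122 and ZBTB38 with 4. In the ZBTB7 subfamily, ZBTB7A was called with miR-372 and miR-373, and ZBTB7B, which directs CD4 T cell fate, and ZBTB7C with none. ZBTB7B differed from ZBTB7A in sign with the seed family, at 0.34 with miR-302a, 0.23 with miR-372 and 0.26 with miR-373, values that did not pass. Among the 4 regulators tied to MYC or CDKN1A (ZBTB17, ZBTB2, ZBTB5 and ZBTB49), 1 was called, ZBTB5 with miR-372. Of the telomere-binding members, ZBTB10 was called with miR-1 and miR-133a, and ZBTB48 and ZBTB40 with none. Of the members tied to neural and muscle development, ZBTB18 was called with miR-1 and miR-155, and ZBTB42 with none. Of the members known from blood and immune cells, 6 were tested in the first batch and 5 in the second, and ZBTB46, for the family mean, was the 1 called against an empty vector.

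Seed matches were counted in the members and in all genes tested, with no test of the difference. The members' 3'UTRs were longer, with a median of 2973 bases, against 1540 over all genes tested in the second batch with a 3'UTR. A match of any of the 3 kinds was found in 39.0% of the members for miR-1, against 24.1% of all genes tested, and in 39.0% for miR-122, against 25.7%. The shares were 30% against 17.2% for miR-133a, 37.5% against 19.2% for miR-155 and 55.0% against 30.1% for the seed family. How far length accounts for these shares was not tested. Most members with a match were not called: 3 of 16 were lower with miR-1, 2 of 16 with miR-122, 2 of 12 with miR-133a, 2 of 15 with miR-155, and, of 22, 2 with miR-302a, 5 with miR-372 and 1 with miR-373. Without a match, 1 member was lower with miR-1 and 1, ZBTB38, with each of the seed family miRNAs.

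The 5 members with an 8mer for the seed family split. Their median log2 fold-change was -0.42 with miR-302a, -0.43 with miR-372 and -0.32 with miR-373, where all genes with an 8mer had -0.18, -0.20 and -0.13. ZBTB41, ZBTB11 and ZBTB5 were the low ones. ZBTB21 had -0.06, -0.07 and 0.02 with the 3 miRNAs, and ZBTB26 had -0.14, -0.12 and 0.003, none of which passed. For miR-155, all 5 members with an 8mer (ZBTB41, ZBTB16, ZBTB39, ZBTB38 and ZBTB24) had values from -0.38 to -0.17, and none was called. In ZBTB16 and ZBTB24 the 3'UTR searched was longer than the whole exon length counted. Replicate 2 of miR-155, which stood apart, had the lowest level in its group for ZBTB39 (25 CPM), ZBTB16 (1.3 CPM) and ZBTB41 (31.1 CPM). For miR-122 the members with an 8mer, ZBTB43 and ZBTB8B, had 0.10 and 0.04. For miR-133a they were ZBTB8A and ZBTB7B, at -0.43 and -0.08, and none of these was called. For miR-1, 9 members held an 8mer, 1 of them (ZBTB41) was called lower, and their median was -0.003, against -0.13 for all genes with a miR-1 8mer. These members were named after their values were seen.

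**Figure D5:**
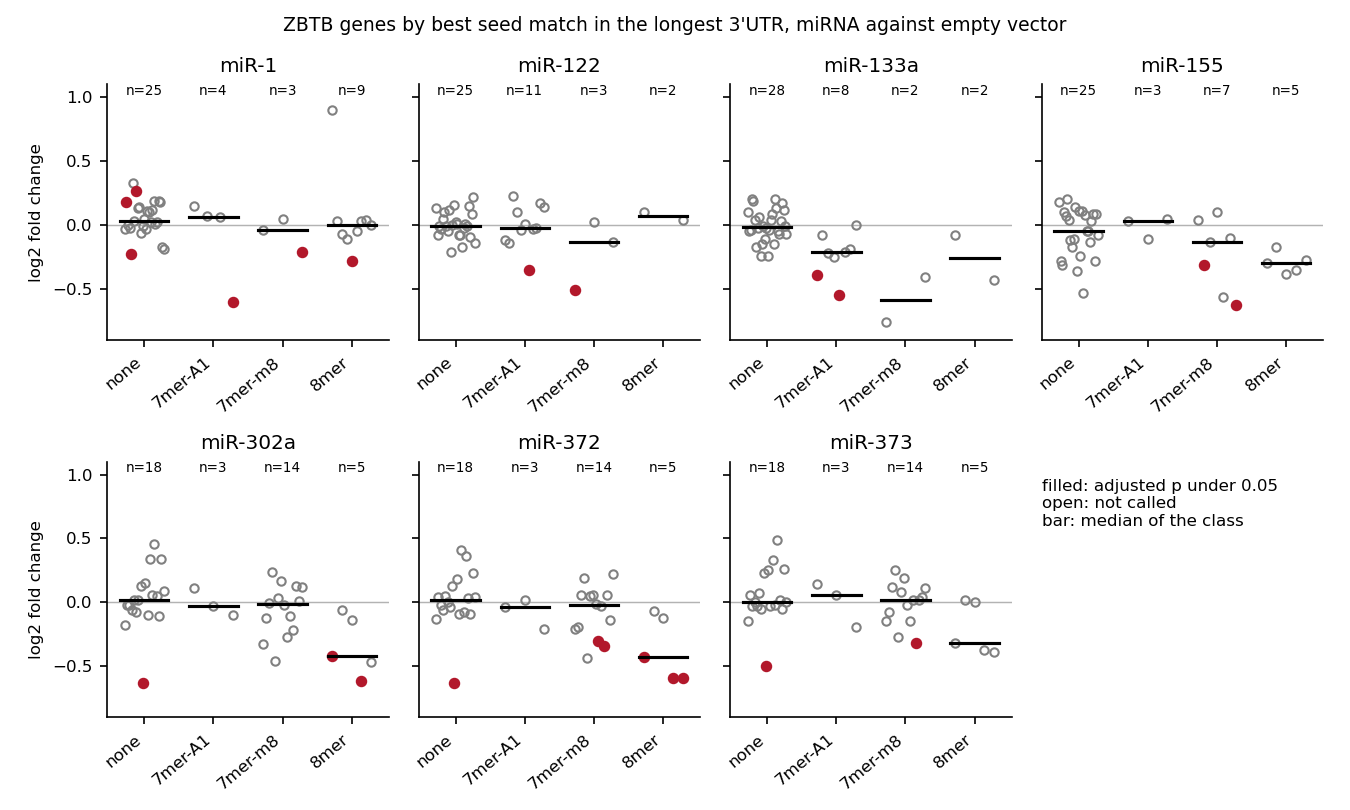
log2 fold-change against the empty vector (vertical axes) of ZBTB genes by the best seed match in their longest 3'UTR (none, 7mer-A1, 7mer-m8 or 8mer), with 1 panel per miRNA; filled points are calls, open points are not called, bars are class medians and n is the number of genes. The 5 genes with a seed family 8mer have medians from -0.43 with miR-372 to -0.32 with miR-373. Among genes without a match, ZBTB38 is called with each seed family miRNA, and ZBTB14 (-0.23), ZBTB10 (0.18) and ZBTB18 (0.27) with miR-1.

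The partners and targets of the family were read from fixed lists. Of 18 corepressor and cullin genes, among them the NCoR, SIN3 and NuRD subunits and CUL3, 7 were higher with miR-1 and 0 lower, from CHD4 at 0.12 (edgeR adjusted p = 0.032) to BCORL1 at 0.26 (adjusted p = 0.0021). That is 38.9% of the list, beside 10.8% of all genes higher. With miR-122, 0 of 18 were called by edgeR, with 6 at an unadjusted p under 0.05, beside 2822 of 14348 genes tested. With miR-133a 2 were lower, TBL1X at -0.77 (edgeR adjusted p = 3.6e-04) and BCORL1 at -0.49 (adjusted p = 0.031). That is 11.1% of the list, beside 3.97% of all genes lower. With miR-155 SIN3A was lower at -0.37 (edgeR adjusted p = 0.021), which is 5.56% of the list, beside 4.81% of all genes lower. GATAD2B, a NuRD subunit, was the 1 called gene of this list with each seed family miRNA, at -0.38 (miR-302a), -0.43 (miR-372) and -0.48 (miR-373) (edgeR adjusted p = 0.0068, 0.0022 and 0.0015). For each that is 5.56% of the list, beside 4.85%, 6.56% and 3.3% of all genes lower.

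Of 9 genes known to be repressed by ZBTB7A, 7 were tested, and the fetal globin genes HBG1 and HBG2 were not. They did not move one way with the seed family: SLC2A3, a glucose transporter, rose and RB1, the retinoblastoma tumour suppressor, fell. SLC2A3 had mean levels of 10.1 CPM in the empty vector and 20.8 with miR-302a, 26.0 with miR-372 and 21.3 with miR-373, with log2 fold-changes of 1.05, 1.37 and 1.08 (edgeR adjusted p = 1.6e-05, 3.9e-07 and 9.6e-06). SLC2A3 also rose with miR-155, at 1.27 (edgeR adjusted p = 1.2e-06), and with miR-133a, at 0.46 (adjusted p = 0.033), where ZBTB7A was not called. Its reads may be split with its close paralogue SLC2A14. RB1 had 139 CPM in the empty vector and 83.8, 82.3 and 91.5 with the 3 miRNAs, log2 fold-changes of -0.73, -0.76 and -0.61 (edgeR adjusted p = 4.9e-04, 2.7e-04 and 0.0032). CDKN1A, the cell cycle inhibitor p21, was lower with miR-302a at -0.37 (edgeR adjusted p = 0.023), and higher with miR-155 at 0.52 (adjusted p = 0.0018). MCAM was lower with miR-133a at -0.46 (edgeR adjusted p = 0.017). In the first batch, 4 of the 7 were higher with miR-1, beside 10.8% of all genes, from PFKP at 0.12 (edgeR adjusted p = 0.042) to CDKN1A at 0.29 (adjusted p = 2.8e-04), and 3 were lower with miR-122, beside 4.06% of all genes, from PKM at -0.96 (edgeR adjusted p = 3.0e-13) to RB1 at -0.18 (adjusted p = 0.016).

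Of 8 BTB zinc finger genes with other symbols, 7 were tested. With each miRNA at most 1 of the 7 was called in a direction. The background with miR-372 was 6.56% of all genes lower and 4.82% higher. It was 3.02% higher with miR-302a, 10.8% higher with miR-1 and 3.97% lower with miR-133a. BCL6, the repressor of germinal centre B cells, was lower with miR-372 at -0.64 (edgeR adjusted p = 0.026), with a mean of 5.95 CPM against 9.47. HIC2 was higher with miR-302a and miR-372, at 0.42 and 0.40 (edgeR adjusted p = 0.045 and 0.043). GZF1 was higher with miR-1 at 0.26 (edgeR adjusted p = 0.0053), and ZNF131 was lower with miR-133a at -0.27 (adjusted p = 0.043). With miR-122, miR-155 and miR-373, 0 of 7 were called by edgeR, with 1, 0 and 1 at an unadjusted p under 0.05. Among all genes tested there were 2822 of 14348 with miR-122, and 3340 and 2487 of 14054 with miR-155 and miR-373.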

How the data were processed

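RNA-seq reads of 24 libraries of Flp-In T-REx 293 cells were trimmed by the authors, aligned to hg19 with TopHat 2.1.1 and then counted over exons with featureCounts, strand by strand and above a mapping quality limit. The authors deposited raw counts per gene, not normalized, in a table per batch. A column of feature (exon) length in bases, another deposited measure, was used only to give levels per kb. Tables of the authors' own comparisons (log2 fold-changes, p-values and q-values from edgeR 3.24.3, for RNA-seq and for RNA-seq combined with PRO-seq) were not used. Per-sample columns left unused: 0.

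edgeR 4.0.16 (R 4.3.3) was fitted to each batch with all its groups in 1 fit: filterByExpr (minimum count of 10), TMM, quasi-likelihood test with group as the factor, two-sided, Benjamini-Hochberg over all genes tested, threshold 0.05. Standard errors were derived from the F statistic, and 95% intervals use the t quantile of the test's total degrees of freedom. CPM used TMM-scaled library sizes, as mean ± SD.

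Symbols came from GENCODE 44 lifted to GRCh37 by identifier (28543 of 29794 matched), and 3'UTRs (longest of a gene) from the same annotation. For some members it differs from the exons counted. The 3'UTR searched exceeds the whole exon length counted in ZBTB16 (6210 against 2830 bases), ZBTB24 (5219 against 1538) and ZBTB20 (24505 against 4878). Coordinates are 1-based on GRCh37. Lists of markers and roles were written by hand. Named with values were ZBTB7A, each member called in at least 1 comparison with the empty vector, and the lowest and highest called gene of the other lists per comparison. Members and lists were chosen with earlier results of these data known. Alternatives were DESeq2 1.42.0 and its size factors, the likelihood ratio test, other filters (none, or over 1 CPM in every library), the replicate number as a block, a fit restricted to the groups in question, a minimum log2 fold-change of 0.2, and leaving out libraries.

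Within each group the replicates differed by more than sampling noise. Correlations across genes of same-numbered libraries' deviations from their group means exceeded 0.1 in all 3 pairs for miR-155 with miR-372 (0.273, 0.614 and 0.451), miR-155 with miR-302a (0.131, 0.202 and 0.112), miR-155 with miR-133a (0.183, 0.345 and 0.198), miR-133a with miR-372 (0.167, 0.300 and 0.138) and miR-302a with miR-372 (0.227, 0.336 and 0.161), and for no miRNA with its empty vector. Tested on simulated data with 100 genes changed per fold size, the fit recovered 90% of log2 changes of 0.585 and 99% of changes of 1 for miR-1 (14225 genes), and 67% and 97% for miR-133a (13945 genes). Only genes with a mean log2 CPM above 1 were changed, and counts were drawn independently at the fitted dispersion. The rates therefore do not cover members at lower levels or deviations shared between libraries.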

Additional observations from a re-analysis of the deposited data

How the results depend on the processing

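Counts of called members moved by more than 1.5 times in these alternatives, and the cause was not tested. The share of all genes called moved as well. It is given for the replicate block and the fit without both libraries, and the other counts stand without that background. With DESeq2's Wald test they were 3 for miR-1, 4 for miR-1 against miR-122, 6 for miR-302a, 5 for miR-373 and 4 for miR-133a against miR-155. With the likelihood ratio test they were 6 for miR-302a, 5 for miR-155, 5 for miR-373 and 4 for miR-133a against miR-155. With no filter they were 5 for miR-302a, 7 for miR-155 and 4 for miR-133a against miR-155, and in a fit of only the groups compared 4 for miR-133a, 5 for miR-302a and 6 for miR-373. With a minimum log2 fold-change of 0.2, there were 5 for miR-1 against miR-122. With the replicate number as a block they were 6 for miR-302a, beside 11.7% of all genes, and 7 for miR-155, beside 11.8%. In that fit they were 5 for miR-373, beside 7.98%, and 7 for miR-133a against miR-155, beside 21.7%. Without miR-155 replicate 2 and miR-372 replicate 2, an alternative chosen after seeing the data, they were 9 for miR-302a, beside 14.5% of all genes. They were then 6 for miR-373, beside 8.41%, 11 for the family mean, beside 19.8%, and 7 for miR-133a against miR-155, beside 19.4%. Leaving out 1 library at a time, the count ranged from 2 to 8 (miR-1), 2 to 3 (miR-122), 4 to 6 (miR-1 against miR-122), 2 to 5 (miR-302a), 1 to 2 (miR-373), 4 to 6 (miR-372), 1 to 4 (miR-155) and 1 to 2 (miR-133a), 5 to 10 for the family mean, 9 to 17 for miR-133a and 10 to 16 for miR-155 against the family mean, 2 to 5 for miR-133a against miR-155, and 0 for each same-seed pair. In the first batch this left 1 library in a group, assumed to vary like the others. Seed-matched members with 8mers alone fell to 5 for each of the seed family, 5 (miR-155), 9 (miR-1), 2 (miR-133a) and 2 (miR-122), and without 7mer-A1 matches to 4 (miR-133a) and 5 (miR-122). The value that changed sign was that of ZBTB7A with miR-1, at 0.03, which became -0.001 without empty vector replicate 1 and -0.004 without miR-1 replicate 1 (up to 0.07 without any other 1 library), in no case a call.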
